A study of Mus musculus with 100 samples.

Results

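The 1865 genomic sites described here were distal PU.1 peaks at which PU.1 ChIP-seq signal was higher once mouse bone marrow-derived macrophages (BMDMs) had been stimulated with KLA (Kdo2 lipid A), which activates TLR4, the receptor for lipopolysaccharide. They were chosen by their PU.1 values: from 50690 PU.1 peaks, 40230 lay more than 2000 bp from a transcription start site (TSS), and of these the sites had a mean of at least 20 tags per 10 M with KLA and a ratio of (KLA + 5) to (Veh + 5) of at least 2. A tag is 1 aligned read, and tags per 10 M are tags scaled to a library of 10 M tags. The remaining 38365 distal PU.1 peaks, of which 7992 had a ratio of 0.5 or less, are called the other distal peaks and the lowered distal peaks. PU.1 itself was therefore not tested between Veh and KLA, and only the other factors and the histone mark were.

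The study asked how NCoR and HDAC3, known as a corepressor and its deacetylase, take part in gene activation downstream of TLR4. BMDMs were made from the marrow of young adult C57BL/6 mice and received vehicle (Veh) or 100 ng/mL KLA for 6 h, with 2 libraries in every group. PU.1, p65, Fosl2, p300, NCoR, HDAC3, PGC1β and ERK1 were immunoprecipitated from wild-type BMDMs, and acetylated lysine 27 of histone H3 (H3K27ac), a mark of active enhancers and promoters, from wild-type and mutant BMDMs. The mutant cells were NKO (NCoR flox/flox, LysMCre, compared with NCoR flox/flox as WT) and Pgc1b flox/flox with LysMCre (compared with Pgc1b flox/flox). LysMCre deletes in myeloid cells, so the genes were removed in the macrophage lineage and not in the whole animal, and every control of these deletions also carried the floxed alleles. Inhibitor groups received KLA and either RGFP966, an inhibitor of HDAC3, or LY3214996, an ERK inhibitor (ERKi). Per the paper's methods, the inhibitors were given with the serum starvation that came before KLA. These groups stood beside KLA with DMSO or, for NCoR with ERKi, beside KLA alone. p300 and ERK1 were also measured in bone marrow cells at day 0 and day 4 of osteoclast differentiation, for which the cells received M-CSF and RANKL. The labels call the libraries biological replicates without saying whether they came from separate animals, so p-values measure the spread between these samples.

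Depth ran from 4.30 to 21.5 M tags over the 70 libraries of 15 tables, and from 15.3 to 19.3 M tags for PU.1. At the promoters of the macrophage genes Itgam, Spi1, Mertk and Fcgr1, regions of open chromatin were listed with 13.2 to 140 tags per 10 M of H3K27ac in WT Veh libraries, whereas no such region was listed for Adgre1 and Lyz2. None was listed for the 9 genes checked for T cells, B cells and neutrophils. Counts of called peaks depend on the scaling: against scaling by library totals, the trimmed mean of M values (TMM), which assumes that most peaks do not change, moved the median of all peaks by more than 0.1 on the log2 scale in 19 of 22 comparisons, by -1.61 to 1.16. Changes at the PU.1 sites are therefore set beside the median of all peaks tested in the same comparison. Scaling PU.1 itself by TMM would have put 3628 sites under the rule in place of 1865.

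PU.1, encoded by Spi1, is an ETS-family transcription factor that defines the macrophage enhancer repertoire: it binds purine-rich GGAA elements, usually together with other factors such as C/EBP, AP-1 or IRF proteins, and opens chromatin there. Signal-dependent factors then act mostly at enhancers that PU.1 has already prepared. TLR4 activates NF-κB, of which p65 is the transactivating subunit, as well as AP-1, to which Fosl2 belongs, and through interferon-β the STAT and IRF proteins. At some enhancers of stimulated macrophages PU.1 arrives only after these factors have bound, and such sites have been termed latent enhancers. p300 is the acetyltransferase that writes H3K27ac, NCoR and HDAC3 are the corepressor and deacetylase, PGC1β is a coactivator of nuclear receptors, and ERK1 is a mitogen-activated protein kinase.

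The 200 bases around the centre of 7 sites are given here in mm10, plus strand, in lower case with every match to 1 of 8 motifs in capitals. They were taken from the genome because the genes nearest to them stand for the main classes of the TLR4 response, with Il12b, Il6 and Il1b for cytokines, Ccl5 for chemokines, Ptges and Nos2 for inducible enzymes and Mir155hg for micro-RNA hosts. Il12b, Ptges, Il1b and Nos2 were chosen after their values were seen. The nearest gene is that of the closest TSS in the authors' annotation and is no assignment of a target.
Il12b site, chr11:44390099-44390298: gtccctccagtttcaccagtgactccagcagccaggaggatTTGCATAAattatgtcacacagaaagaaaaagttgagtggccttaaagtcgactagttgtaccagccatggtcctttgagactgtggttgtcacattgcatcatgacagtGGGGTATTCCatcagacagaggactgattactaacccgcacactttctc
Ptges site, chr2:30913176-30913375: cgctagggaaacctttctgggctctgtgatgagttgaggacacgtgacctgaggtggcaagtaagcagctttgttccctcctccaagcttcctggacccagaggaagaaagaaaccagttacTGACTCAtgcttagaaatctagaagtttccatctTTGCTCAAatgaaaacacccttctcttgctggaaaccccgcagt
Il6 site, chr5:29993682-29993881: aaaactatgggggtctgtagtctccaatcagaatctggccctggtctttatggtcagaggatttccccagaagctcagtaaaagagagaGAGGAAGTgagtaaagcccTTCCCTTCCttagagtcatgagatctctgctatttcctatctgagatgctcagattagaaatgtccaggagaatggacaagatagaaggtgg
Il1b site, chr2:129410511-129410710: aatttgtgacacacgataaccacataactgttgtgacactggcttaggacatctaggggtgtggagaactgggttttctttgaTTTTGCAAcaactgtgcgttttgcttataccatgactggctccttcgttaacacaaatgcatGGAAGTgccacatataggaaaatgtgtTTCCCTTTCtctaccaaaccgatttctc
Ccl5 site, chr11:83536530-83536729: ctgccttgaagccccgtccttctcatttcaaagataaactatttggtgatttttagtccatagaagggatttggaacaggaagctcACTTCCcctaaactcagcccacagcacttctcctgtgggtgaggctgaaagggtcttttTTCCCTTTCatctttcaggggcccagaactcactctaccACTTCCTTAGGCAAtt
Mir155hg site, chr16:84708704-84708903: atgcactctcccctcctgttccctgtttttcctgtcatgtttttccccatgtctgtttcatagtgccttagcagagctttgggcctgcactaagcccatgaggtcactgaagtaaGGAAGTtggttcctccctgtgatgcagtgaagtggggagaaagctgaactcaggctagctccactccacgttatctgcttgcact
Nos2 site, chr11:78950364-78950563: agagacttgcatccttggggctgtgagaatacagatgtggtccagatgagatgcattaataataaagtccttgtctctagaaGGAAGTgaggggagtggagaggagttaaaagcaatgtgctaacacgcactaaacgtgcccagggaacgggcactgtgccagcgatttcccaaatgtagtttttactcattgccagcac

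The motifs searched on both strands were the ETS core GGAAGT, the PU.1 element GAGGAAGT that contains this core, the PU.1-IRF composite element GGAANNGAA, an ISRE-like element GAAANNGAA, the AP-1 element TGANTCA, the C/EBP element TTGCNNAA, the STAT element TTCNNNGAA and the NF-κB consensus (κB). The ETS core was added after the data had been seen. In the sequences shown, the site near Il12b held a C/EBP and a κB match and no ETS core. The site near Ptges held an AP-1 and a C/EBP match. Those near Il6, Il1b and Ccl5 held an ETS core together with a composite or ISRE-like match, and the windows near Mir155hg and Nos2 held an ETS core alone.

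Over all sites, the 200 bases around the centre were searched. They held a κB match at 10.6% of the KLA-raised sites, against 2.58% of the other distal peaks and 1.74% of the lowered ones. The ETS core was found at 46.3% of the KLA-raised sites, against 57.9% of the other and 59.7% of the lowered distal peaks. The longer PU.1 element was found at 11.9%, 19.6% and 20.5% of the same sets. PU.1 sites that were higher with KLA thus held the binding element of PU.1 less often, and that of NF-κB more often, than the other distal peaks. ISRE-like matches stood at 18.0% against 10.7% and 8.77%, and C/EBP matches at 19.0% against 12.7% and 9.75%. AP-1 matches stood at 18.1% against 15.5% of the other and 9.81% of the lowered peaks. The composite element stood at 14.0% against 16.8% and 18.9%, and the STAT element at 8.10% against 6.85% and 5.77%. Both a κB and an AP-1 match were present at 1.23% of the KLA-raised sites, against 0.396% of the other distal peaks. No match to any of the 8 motifs was found at 18.1% of the KLA-raised sites and 19.4% of the others. The base composition differed in the same windows, with a mean GC content of 42.3% at KLA-raised sites, 47.1% at other distal and 49.0% at lowered distal peaks. Its part in the shares was not tested.

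**Figure D1:**
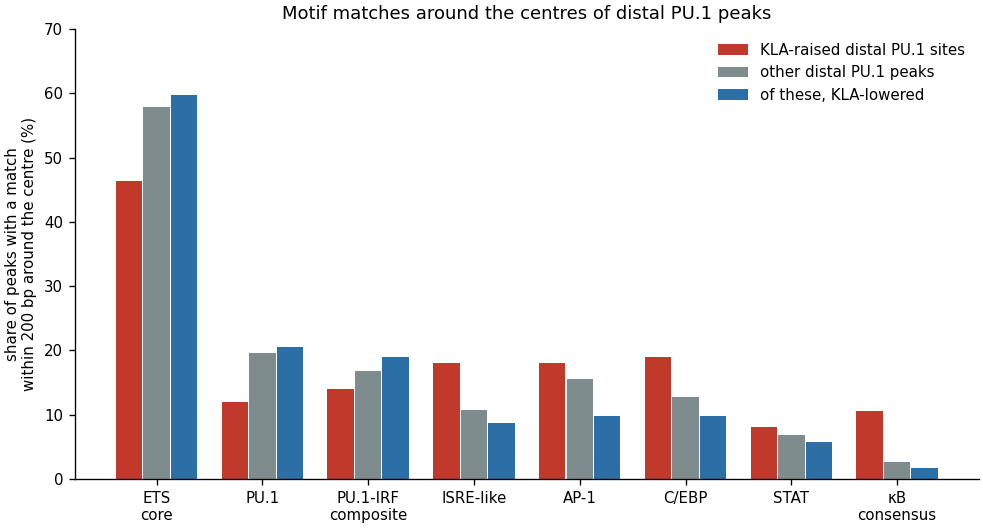
Share of sites (%, vertical axis) holding at least 1 match to each of 8 motifs in the 200 bases around the peak centre. The sets are the 1865 KLA-raised distal PU.1 sites, the 38365 other distal PU.1 peaks and the 7992 lowered distal peaks, which are a subset of the other distal peaks. The κB bars stand at 10.6%, 2.58% and 1.74%, and the ETS core bars at 46.3%, 57.9% and 59.7%.

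Within the KLA-raised sites, distances were taken from matches in the 300 bases around the peak centre. This window is wider than that of the shares above. The PU.1 element lay closest to the peak centre, at a median of 13 bp, followed by the ETS core at 22 bp and the composite element at 31.5 bp. κB matches lay at a median of 43 bp, ISRE-like matches at 51.5 bp, AP-1 matches at 52.5 bp, C/EBP matches at 57 bp and STAT matches at 75 bp. Sites with an ETS core in the narrower window of the shares and sites without one had similar values of the other factors. For p65 the median log2 fold change was 3.57 over the 786 tested of 864 sites with the core. It was 3.56 over the 943 tested of 1001 without it. For NCoR the medians were 1.91 with and 2.02 without the ETS core.

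In the Veh libraries the KLA-raised sites held medians of 33.6 and 34.2 tags per 10 M of PU.1, and in the KLA libraries 111 and 109. At the other distal peaks the medians were 76.5 and 77.8 with Veh and 58.9 and 58.6 with KLA. The rule favours sites with low PU.1 with Veh and high PU.1 with KLA, so the order of these medians is a description of the choice. The mean with Veh ranged from 0 to 159 tags per 10 M with quartiles of 22.3 and 48.9, and the mean with KLA from 57.2 to 414 with quartiles of 90.9 and 145. The median ratio was 2.87, with quartiles of 2.31 and 4.19. Both KLA libraries lay above both Veh libraries at all 1865 sites, as the rule nearly requires, and at 17.2% of the other distal peaks.

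The authors' peak calls divided the sites by treatment. At 839 sites (45.0%) a peak had been called with KLA only, at 910 (48.8%) with both treatments and at 116 (6.22%) with Veh only. Of the other distal peaks, 0.506% had been called with KLA only and 65% with Veh only. The 116 sites called with Veh only had passed the rule on tags all the same.

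**Figure D2:**
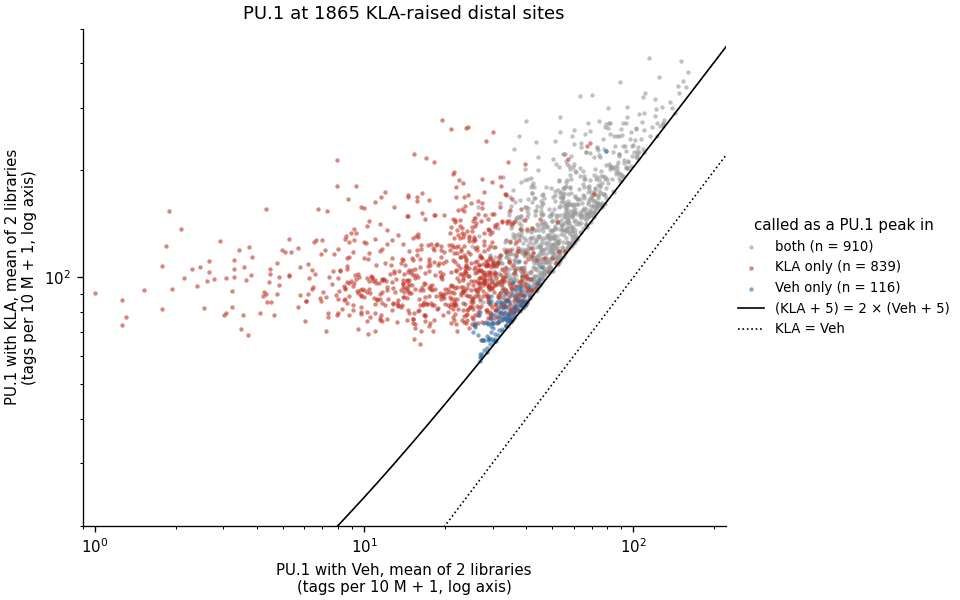
Mean PU.1 signal of 2 libraries with Veh (horizontal axis) and with KLA (vertical axis), both in tags per 10 M plus 1 on log axes, for the 1865 KLA-raised distal sites, coloured by the treatment in which the authors called a peak. The solid line marks the ratio of 2 that chose the sites, the dotted line equal signal, and the 839 sites called with KLA only spread to the left, down to 0 tags with Veh.

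The highest ratio was found 40 kb upstream of Il6, the cytokine interleukin 6, at chr5:29972845-29973055 (intergenic), where PU.1 stood at 0.517 and 1.24 tags per 10 M with Veh and at 149 and 157 with KLA. The ratio there was 26.9. The next 5 ratios belonged to an intron 47.5 kb from the TSS of Fmn1, an actin nucleator (23.1), an intron of Usp18, which removes ISG15 from proteins (21.7), and sites near Il17d (19.3), Tspan3 (19.3) and Adora2a, an adenosine receptor (18.9). At each of these 6 sites the Veh libraries held at most 4.14 tags per 10 M. The 6 sites with the most PU.1 with KLA, in contrast, were also bound with Veh. They lay in introns of Alpk2 (mean of 414 with KLA), Zmynd8 (404), Rgs9 (377), Parp14 (365), Cdhr3 (356) and Ascc3 (354), where the Veh libraries held between 83.8 and 167 tags per 10 M.

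At the threshold of 2, the sites just inside were near Snx17 (ratio of 2.00087) and Fgl2 (2.00102), and the distal peaks just outside were near Gm5177 (1.99938) and Mapkapk2 (1.99875). The site near Snx17 held 48.1 and 56.0 tags per 10 M with Veh and 113 and 106 with KLA. The minimum of 20 tags excluded no distal peak, since the lowest means with KLA among sites of sufficient ratio were 57.2 near Rbbp8 and 58.8 near Nap1l2.

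Most sites lay in introns (922, 49.4%) or between genes (877, 47.0%), and the rest at transcription termination sites (24), in exons (20), in 3' UTRs (17), in non-coding transcripts (4) or in a 5' UTR (1). The median distance to the nearest TSS was 23 kb, against 21.3 kb for the other distal peaks. Of the KLA-raised sites, 174 (9.33%) lay more than 100 kb and 499 (26.8%) less than 10 kb from it. The 1865 sites were nearest to 1267 genes on 20 chromosomes. Of the KLA-raised sites, 529 (28.4%) lay in a stretch with another KLA-raised site, joined at the gap customary for super-enhancers. Within their own sets, 73.9% of the far more numerous other distal peaks and 45.6% of the 7992 lowered ones lay in a stretch. These shares depend on the number of peaks in each set, so they cannot say which set was more clustered. The 14 stretches of at least 4 sites included 6 sites over 30.0 kb at Fpr1, Fpr2 and Has1 on chromosome 17, which encode formyl peptide receptors and hyaluronan synthase 1. They also included 5 sites over 30.6 kb near Tnfaip3, the NF-κB inhibitor A20, 5 over 17.6 kb near Edn1, which encodes endothelin 1, and 4 over 10.1 kb near Il12a, a subunit of interleukin 12. Edn1 was the nearest gene of 12 sites, 4930529L06Rik and Slco3a1 of 11 each, and Lpp, Pla2g4a and Tnfaip3 of 9 each.

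p65, the NF-κB subunit, was present at almost all of the sites. A p65 peak centre lay within 500 bp of 1729 sites (92.7%), against 58.8% of the other distal peaks, and the median distance between the centres was 27 bp. The median p65 level at the sites was 10.5 and 12.1 tags per 10 M in the Veh libraries and 133 and 143 in the KLA libraries, while at the other distal peaks it was 26.3 and 30.8 with Veh and 51.4 and 56.1 with KLA. With KLA, p65 was called higher (edgeR adjusted p under 0.05 and more than 2-fold) at 1711 of the 1729 sites and lower at 0, beside 57% of all 52629 p65 peaks called higher and 5.43% called lower. The median log2 fold change was 3.56 at the sites, 1.46 over all p65 peaks, 1.02 at the other distal peaks and -0.33 at the lowered ones. By TMM the count was 1470 higher and 1 lower, with a median of 2.34. The peak tables merge peaks called with either treatment, so that a peak called with KLA only had to differ. Of the 266 sites whose p65 peak had been called with Veh, 261 were called higher, against 24.7% of all p65 peaks called with Veh.

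The lowest p-value for p65 belonged to a site near Ccdc88b, where the level was 14.9 and 16.8 tags per 10 M with Veh and 656 and 671 with KLA (log2 fold change 5.38, SE 0.23, edgeR adjusted p = 6.40e-07). Among the PU.1 sites called with KLA only, p65 was called higher at 788 of 792 with a median log2 fold change of 4.14. It was called higher at 835 of 846 sites called with both treatments (3.28) and at 88 of 91 called with Veh only (2.56). At 18 sites the p65 peak was not called higher, with a median of 0.96, and at 136 sites no p65 peak lay within 500 bp. The latter had a median PU.1 log2 ratio of 1.25, and p300, NCoR and HDAC3 were called higher at 37 of 57, 44 of 67 and 41 of 60 of them that had a peak of the factor.

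Fosl2, an AP-1 protein, was called higher at the larger part of the sites that had a Fosl2 peak. Of 1347 such sites, 863 were called higher and 0 lower, beside 11.4% of all 31283 Fosl2 peaks called higher and 4.19% called lower. The sites' median level was 25.4 and 19.9 tags per 10 M with Veh and 90.8 and 185 with KLA, so that the KLA libraries stood 2-fold apart, and at the other distal peaks it was 69.1 and 55.6 with Veh and 34.9 and 73.6 with KLA. On the log2 scale the median change was 2.61 at the sites, -0.14 over all Fosl2 peaks, -0.31 at the other distal peaks and -1.67 at the lowered ones. The count was 0 without Veh replicate 1 and 0 without Veh replicate 2, fits in which the spread came from the KLA pair alone, whereas TMM gave 1142. Of the 515 sites whose Fosl2 peak had been called with Veh, 220 were called higher, against 2.07% of all such peaks. The lowest p-value belonged to a site near Mir101b, at 0 and 0 tags per 10 M with Veh and 284 and 526 with KLA.

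p300, the H3K27 acetyltransferase, had a peak at 1734 of the sites, of which 1595 were called higher and 2 lower, beside 42.1% of all 67998 p300 peaks called higher and 12.9% called lower. Its median level was 16.9 and 15.8 tags per 10 M with Veh and 106 and 108 with KLA, while the other distal peaks stood at 42.0 and 38.8 with Veh and at 40.4 and 40.0 with KLA. In log2 units the median change was 2.61 at the sites, 0.65 over all p300 peaks, 0.01 at the other distal peaks and -1.27 at the lowered ones. By TMM, 1419 sites were called higher. Of the 714 sites with a p300 peak called with Veh, 637 were called higher, against 15.1% of all such peaks. The lowest p-value fell on a site near 4930529L06Rik, at 0.627 and 0.657 tags per 10 M with Veh and 363 and 377 with KLA. Of the 2 sites called lower, the one with the lower p-value was near Neat1, a long non-coding RNA, at 89.0 and 125 tags per 10 M with Veh and 44.5 and 57.8 with KLA (log2 fold change -1.06, edgeR adjusted p = 0.001).

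The corepressor and its deacetylase were both higher with KLA at most of the sites. NCoR had a peak at 1713 sites, of which 1414 were called higher and 1 lower, beside 23.4% of all 55045 NCoR peaks called higher and 16.7% called lower. Its median level was 19.1 and 21.2 tags per 10 M with Veh and 90.7 and 89.2 with KLA at the sites, and 58.5 and 69.4 with Veh and 49.4 and 49.1 with KLA at the other distal peaks. The median log2 fold change was 1.97 at the sites, 0.10 over all NCoR peaks, -0.36 at the other distal and -1.61 at the lowered peaks. HDAC3 had a peak at 1697 sites, of which 1498 were called higher and 0 lower, beside 27.5% of all 48502 HDAC3 peaks called higher and 11.3% called lower. Its median level was 24 and 24.3 tags per 10 M with Veh and 94.9 and 130.0 with KLA at the sites, against 76.4 and 76.9 with Veh and 55.1 and 80.8 with KLA at the other distal peaks. On the log2 scale the median change was 2.02 at the sites, 0.27 over all HDAC3 peaks, -0.12 at the other distal and -1.35 at the lowered peaks. Median corepressor signal was thus higher with KLA where PU.1 was higher and lower where PU.1 was lower.

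For HDAC3 the count was 713 without Veh replicate 1 and 697 without Veh replicate 2. TMM called 1429 sites higher for NCoR and 1376 for HDAC3. Both factors were called higher at 1307 sites (70.1%), a share that was not counted at the other distal peaks. Of the sites whose factor peak had been called with Veh, 399 of 590 were called higher for NCoR and 268 of 387 for HDAC3, against 5.44% and 5.25% of all such peaks. The lowest p-value for NCoR fell near Itpkb, an inositol trisphosphate kinase, at 8.36 and 17.6 tags per 10 M with Veh and 405 and 379 with KLA (log2 fold change 4.90, edgeR adjusted p = 2.34e-05). The site called lower for NCoR was near Mink1 (38.2 and 43.5 with Veh, 17.8 and 18.0 with KLA, log2 fold change -1.19, edgeR adjusted p = 0.0356). For HDAC3 the lowest p-value fell on a site near Slco3a1, at 1.46 and 2.21 tags per 10 M with Veh and 268 and 413 with KLA (edgeR adjusted p = 2.96e-36).

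PGC1β, the coactivator, had a peak at 1273 sites, of which 1136 were called higher and 2 lower, beside 16.4% of all 45675 PGC1β peaks called higher and 6.35% called lower. Its median level was 9.40 and 9.76 tags per 10 M with Veh and 56.8 and 40.0 with KLA at the sites, and 27 and 27.9 with Veh and 33.9 and 25.7 with KLA at the other distal peaks. In log2 units the median change was 2.33 at the sites and 0.06 over all PGC1β peaks. A second pair of PGC1β groups, treated with DMSO, gave 1155 of 1458 sites called higher and 0 lower, beside 16.4% of all 53474 peaks called higher and 1.23% called lower. There the median level was 10.6 and 13.1 tags per 10 M with Veh and 73.0 and 67.0 with KLA, and the count was 766 without DMSO Veh replicate 1 and 884 by TMM. The 2 sites called lower in the first pair included the one near Neat1, at 92.8 and 91.1 tags per 10 M with Veh and 43.7 and 41.2 with KLA (log2 fold change -1.12, edgeR adjusted p = 0.00991). The lowest p-value among those called higher fell near Ptgs2os2, the antisense neighbour of the cyclooxygenase 2 gene Ptgs2, at 2.35 and 1.86 with Veh and 174 and 95.5 with KLA. Of the sites with a PGC1β peak called with Veh, 195 of 273 in the first pair and 174 of 275 in the second were called higher, against 4.01% and 5.83% of all such peaks.

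ERK1, the kinase, had a peak at 1143 sites, of which 657 were called higher and 0 lower, beside 10.3% of all 27931 ERK1 peaks called higher and 2.53% called lower. Its median level was 9.44 and 10.4 tags per 10 M with Veh and 54.1 and 47.6 with KLA at the sites, against 36.2 and 33.5 with Veh and 36.9 and 34.0 with KLA at the other distal peaks. The median log2 fold change was 2.28 at the sites and 0.26 over all ERK1 peaks. The count was 268 without KLA replicate 1 and 330 without KLA replicate 2. Of the 133 sites whose ERK1 peak had been called with Veh, 40 were called higher, against 1.27% of all such peaks. The lowest p-value fell near Slc15a3, a peptide transporter of lysosomes, at 9.44 and 9.25 tags per 10 M with Veh and 192 and 151 with KLA (log2 fold change 4.18, edgeR adjusted p = 0.00349).

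**Figure D3:**
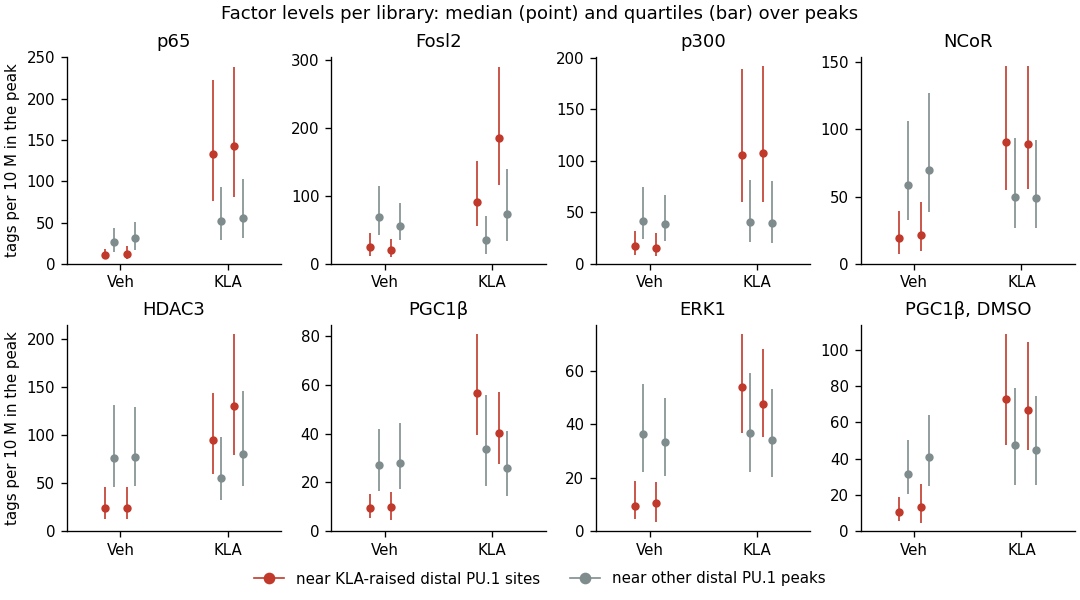
Level of each factor in tags per 10 M (vertical axes, linear from 0) at the KLA-raised distal PU.1 sites and at the other distal PU.1 peaks that have a peak of the factor, 1 point a library at the median with bars from the lower to the upper quartile over peaks, and with the DMSO pair of PGC1β in the last panel. At the KLA-raised sites the median of every KLA library lies above those of both Veh libraries in all 8 panels, as for p65 at 133 and 143 against 10.5 and 12.1.

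**Figure D4:**
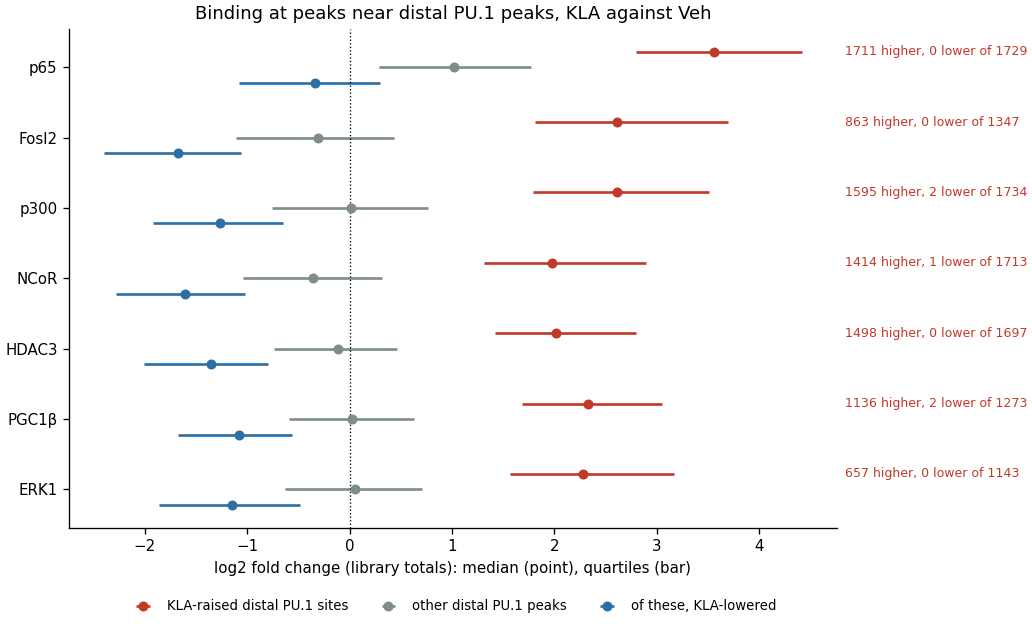
Median log2 fold change of KLA against Veh (points, with bars over the quartiles of sites) for 7 factors at KLA-raised, other and lowered distal PU.1 sites. The KLA-raised sites have medians between 1.97 (NCoR) and 3.56 (p65), and the lowered sites lie below 0 for each of the 7 factors.

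Single factors also had a peak near many of the 38365 other distal peaks, though at a smaller share than at the KLA-raised sites. A p300 peak lay near 27673 of them, an NCoR peak near 25995 and an HDAC3 peak near 24210. For PGC1β, Fosl2 and ERK1 the counts were 19755, 18777 and 15512. The 7 factors overlapped at the KLA-raised sites, and these overlaps were not counted at the other distal peaks. Peaks of all 7 lay within 500 bp of 847 sites (45.4%) and no peak of any at 32 (1.72%). All 7 were called higher at 394 sites (21.1%), 6 of 7 at 388 (20.8%) and none at 61 (3.27%). p65, p300, NCoR and HDAC3 were called higher together at 1204 sites (64.6%), and p65 with Fosl2 at 861 (46.2%). The peak centres of the factors lay at median distances of 24 bp (NCoR) to 36 bp (ERK1) from the PU.1 centre. Across the sites, the log2 fold change of NCoR went with that of HDAC3 (Spearman's rho of 0.812 over 1645 sites), that of PU.1 with that of p65 (0.605 over 1729) and that of PU.1 with that of HDAC3 (0.686 over 1697). These correlations are over sites that share their libraries and their treatment, and no p-value is given.

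Values were larger at sites with a gain of Fosl2. At the 863 sites at which Fosl2 was called higher, p65 was called higher at 861 of 861 with a median log2 fold change of 4.12, p300 at 854 of 859 (3.22), NCoR at 787 of 849 (2.46) and HDAC3 at 808 of 845 (2.50). At the 484 sites whose Fosl2 peak was not called higher, the medians were 2.90 for p65, 1.94 for p300, 1.38 for NCoR and 1.46 for HDAC3. At the 518 sites with no Fosl2 peak, they were 3.11, 2.06, 1.92 and 1.99. PU.1 followed the same order, with median log2 ratios of 1.89, 1.25 and 1.39. Sites where Fosl2 was called higher held κB matches at 14.1%, AP-1 matches at 20.6% and the ETS core at 41.7%, and those with no Fosl2 peak held them at 8.49%, 9.65% and 56.8%. The difference between these subsets was not tested.

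Of 211 genes fixed in 10 lists of macrophage functions, 81 were the nearest gene of at least 1 KLA-raised site. These sites numbered 178, or 9.54% of the KLA-raised sites, while 2.83% of all distal PU.1 peaks were nearest to a listed gene. The lists were drawn up with earlier results of these data known. Cytokine genes had 33 sites at 11 of 22 genes with a median PU.1 ratio of 4.52, and NF-κB and feedback genes 37 sites at 14 of 24 genes (3.72). Interferon response genes had 31 sites at 13 of 30 genes (3.31), and enzymes and secreted proteins 19 sites at 9 of 32 genes (3.89). Lipid and LXR target genes, 4 of 11, had the lowest median ratio (2.24 over 7 sites), and chemokines only 4 sites at 3 of 17 genes (3.35). The counts called in each list stand beside those of all KLA-raised sites with a peak. These were 1711 of 1729 for p65, 863 of 1347 for Fosl2, 1595 of 1734 for p300 and 1414 of 1713 for NCoR. For HDAC3, PGC1β and ERK1 they were 1498 of 1697, 1136 of 1273 and 657 of 1143. Differences between a list and all sites were not tested.

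At the 33 sites of cytokine genes, p65 was called higher at 31 of 31 with a peak and a median log2 fold change of 5.40, above the 3.56 of all KLA-raised sites. p300 was called higher at 31 of 32 (3.80), Fosl2 at 21 of 26 (3.55), PGC1β at 24 of 24 (3.27), NCoR at 22 of 31 (2.10), HDAC3 at 23 of 30 (2.36) and ERK1 at 17 of 24 (2.67). For NCoR and HDAC3 the shares called were smaller than the 1414 of 1713 and 1498 of 1697 of all KLA-raised sites. Their medians lay above the 1.97 and 2.02 of all KLA-raised sites. The site with the most PU.1 lay 71 kb from the TSS of Edn1, at chr13:42372322-42372530 (intergenic), with 137 and 148 tags per 10 M with Veh and 287 and 292 with KLA. p65 there stood at 14.0 and 28.9 with Veh and 334 and 313 with KLA (log2 fold change 3.92, SE 0.30, edgeR adjusted p = 2.27e-06). Near Il12a, at chr3:68633655-68633874 (intergenic), PU.1 was 48.6 and 56.0 with Veh and 264 and 247 with KLA. p65 at this site rose from 4.38 and 5.59 to 318 and 342 tags per 10 M (log2 fold change 6.03, SE 0.31, edgeR adjusted p = 6.4e-07). NCoR there stood at 29.9 and 16.5 with Veh and 139 and 135 with KLA (log2 fold change 2.56, edgeR adjusted p = 0.000245).

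The site near Il6 whose sequence is shown held 51.7 and 64.7 tags per 10 M of PU.1 with Veh and 249.9 and 249 with KLA. NCoR there was 12.0 and 3.53 with Veh and 61.6 and 79.5 with KLA (log2 fold change 3.18, edgeR adjusted p = 0.000798), and p65 went from 10.5 and 4.66 to 125 and 167 (4.23, edgeR adjusted p = 8.99e-06). The more distant site 40 kb upstream of Il6 gained p65, at 4.38 and 0 with Veh and 88.8 and 109 with KLA, but had no NCoR or HDAC3 peak within 500 bp. Near Il12b, which encodes the p40 subunit of interleukins 12 and 23, PU.1 went from 9.83 and 6.85 to 130.2 and 134. NCoR at this site, which holds a κB and a C/EBP match, went from 14.3 and 29.4 to 314 and 271 (log2 fold change 3.73, SE 0.30, edgeR adjusted p = 3.59e-05). HDAC3 went from 19.6 and 19.9 to 264 and 386 (4.02, edgeR adjusted p = 1.27e-19). The site 39 kb upstream of Il1b held 5.69 and 5.60 tags per 10 M of PU.1 with Veh and 111 and 143 with KLA. Its p300 was 3.13 and 11.8 with Veh and 378 and 383 with KLA (log2 fold change 5.67, edgeR adjusted p = 2.36e-10).

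The 3 chemokine genes with a site were Ccl5, Ccl12 and Ccl2, which attract T cells and monocytes. Near Ccl5, at chr11:83536517-83536742 (intergenic), PU.1 was 42.9 and 46.1 tags per 10 M with Veh and 146 and 168 with KLA. p65 rose from 0 and 2.80 to 108 and 124.5, no Fosl2 peak lay near, and NCoR rose from 10.8 and 20.0 to 102 and 77.5 (log2 fold change 2.53, edgeR adjusted p = 0.000689). Near Ccl12, PU.1 was 49.6 and 42.3 with Veh and 142 and 138 with KLA, and HDAC3 did not pass the fold limit (83.7 and 75.8 with Veh, 112 and 204 with KLA, log2 fold change 0.96, edgeR adjusted p = 0.0219). Near Ccl2, PU.1 was 18.6 and 23 with Veh and 83.7 and 83.5 with KLA, with p300 at 4.39 and 15.1 with Veh and 77.2 and 78.9 with KLA (3.01, edgeR adjusted p = 7.23e-06).

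At the sites of interferon response genes, p65 was called higher at 26 of 26 (median log2 fold change 3.63), NCoR at 27 of 29 (2.12), HDAC3 at 23 of 27 (2.12), p300 at 22 of 25 (2.32) and Fosl2 at 12 of 18 (2.61). The intronic site at Parp14, a mono-ADP-ribosyltransferase, held 119 and 128 tags per 10 M of PU.1 with Veh and 369 and 360.1 with KLA. p65 reached 78.1 and 71.2 there from 11.4 and 36.4 (log2 fold change 1.65, edgeR adjusted p = 0.00808), the smallest p65 change among the 3 interferon sites with the most PU.1. The site 9.8 kb upstream of Mx1, an antiviral GTPase, held 103 and 116 tags per 10 M of PU.1 with Veh and 321 and 339 with KLA, and p65 rose from 30.6 and 42.0 to 387 and 376 (3.39, edgeR adjusted p = 1.41e-06). The site 15.8 kb from Usp18 was among those at which neither corepressor was called: NCoR was 338 and 388 with Veh and 382 and 388 with KLA (log2 fold change 0.08, SE 0.17, edgeR adjusted p = 0.699), and HDAC3 443 and 369 with Veh and 371 and 560 with KLA (0.19, SE 0.41, edgeR adjusted p = 0.752). PU.1 there was 132 and 162 with Veh and 362 and 295 with KLA, and p65 rose from 28.0 and 38.2 to 217 and 235 (2.77, edgeR adjusted p = 7.66e-06). The second site at Usp18, an intron 4.4 kb from the TSS, held 1 NCoR tag over both Veh libraries and 180 and 162 tags per 10 M with KLA, so that these neighbouring sites differed in their corepressor signal with Veh.

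NF-κB and feedback genes had p65 called higher at 36 of 36 sites (3.79), p300 at 36 of 36 (2.77), Fosl2 at 24 of 31 (3.57), NCoR at 32 of 37 (2.77), HDAC3 at 33 of 36 (2.52) and PGC1β at 27 of 27 (3.05). Upstream of Nfkb1, the p105 precursor of the p50 subunit, PU.1 at chr3:135720032-135720246 was 97.2 and 83.4 tags per 10 M with Veh and 305 and 236 with KLA. p65 there rose from 17.5 and 20.5 to 295 and 324 (log2 fold change 4.02, SE 0.26, edgeR adjusted p = 9.33e-07), and NCoR from 52.6 and 71.8 to 305 and 277 (2.22, SE 0.22, edgeR adjusted p = 8.73e-05). Near Tnfaip3, at chr10:19053682-19053936, PU.1 was 55.9 and 58.5 with Veh and 205 and 198 with KLA. NCoR at this site was 127 and 97.7 with Veh and 219.5 and 214 with KLA, below the fold limit (0.95, edgeR adjusted p = 0.00427), and HDAC3 was 145 and 157 with Veh and 229.7 and 258 with KLA (0.69, edgeR adjusted p = 0.12). The site near Zc3h12c, a relative of the RNase Regnase-1, held 81.7 and 95.8 tags per 10 M of PU.1 with Veh and 259.7 and 260.0 with KLA. The site 6.7 kb from Nfkbia, the inhibitor IκBα, held 22.8 and 22.4 with Veh and 141 and 164 with KLA, with p65 at 7.88 and 2.80 with Veh and 96.2 and 115 with KLA (4.26, edgeR adjusted p = 1.94e-05).

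Genes of AP-1, ATF and other inducible factors had 11 sites at 8 of 23 genes, with p65 called higher at 11 of 11 (3.63), p300 at 11 of 11 (3.26), HDAC3 at 11 of 11 (2.13), NCoR at 10 of 11 (2.42) and Fosl2 at 8 of 10 (3.44). Near Batf, an AP-1 partner of IRF proteins, PU.1 was 17.1 and 28.0 tags per 10 M with Veh and 162 and 173 with KLA, with p65 at 4.38 and 5.59 with Veh and 185 and 203 with KLA (5.26, edgeR adjusted p = 1.14e-06). Near Klf7, a zinc finger factor, PU.1 was 35.7 and 31.1 with Veh and 158 and 139.6 with KLA, and near Hif1a, the hypoxia factor, 52.2 and 47.9 with Veh and 139 and 133 with KLA. Fosl2 near Hif1a was 29.6 and 16.8 with Veh and 72.2 and 67.8 with KLA and did not pass the test (1.59, edgeR adjusted p = 0.228).

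At the 19 sites of enzymes and secreted proteins, p65 was called higher at 19 of 19 (4.05), p300 at 16 of 19 (3.12), Fosl2 at 14 of 18 (2.86) and NCoR and HDAC3 at 15 of 19 each (2.29 and 2.13). The site near Pla2g4a, the phospholipase that releases arachidonic acid, held 98.3 and 129 tags per 10 M of PU.1 with Veh and 253 and 244 with KLA. That near Slc7a2, an arginine transporter, held 91.0 and 64.7 with Veh and 201 and 212 with KLA. The intronic site of Sod2, the mitochondrial superoxide dismutase, at chr17:13010124-13010352, held 49.6 and 59.1 with Veh and 169 and 186 with KLA. p65 there rose from 54.3 and 69.0 to 649.8 and 715 (3.47, SE 0.21, edgeR adjusted p = 8.06e-07), among the highest p65 levels of the named sites. Near Ptges, the inducible prostaglandin E synthase, PU.1 was 6.21 and 11.2 with Veh and 156 and 158 with KLA. p65 there was 12.3 and 1.86 with Veh and 522 and 587 with KLA (6.25, edgeR adjusted p = 8.99e-07), and Fosl2 9.87 and 4.19 with Veh and 298 and 555 with KLA (5.94, edgeR adjusted p = 1.24e-08). The intronic site of Nos2, the inducible nitric oxide synthase, held 7.76 and 7.47 tags per 10 M of PU.1 with Veh and 82.4 and 85.4 with KLA, and its NCoR was 14.3 and 8.24 with Veh and 56.7 and 77.5 with KLA (2.56, edgeR adjusted p = 0.00113). Near Cp, the ferroxidase ceruloplasmin, PU.1 was 10.9 and 13.1 with Veh and 91.6 and 88.6 with KLA, and NCoR 27.5 and 37.7 with Veh and 286 and 234.5 with KLA (2.99, edgeR adjusted p = 4.74e-05). Nfkbia and Cp, like the sites named above for their sequences, were chosen after their values were seen.

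Surface receptors and ligands had 14 sites at 9 of 29 genes, with p65 called higher at 13 of 13 (3.59), p300 at 13 of 13 (3.33), NCoR at 11 of 12 (1.56) and HDAC3 at 11 of 12 (1.73). Their strongest sites lay in introns of Il15ra, the interleukin 15 receptor (68.8 and 105 tags per 10 M of PU.1 with Veh, 206 and 213 with KLA), and Fpr2, a formyl peptide receptor (48.6 and 28.6 with Veh, 219 and 196 with KLA). That of Cd274, the checkpoint ligand PD-L1, held 69.8 and 72.8 with Veh and 167 and 187 with KLA. The site at Il15ra had no NCoR or Fosl2 peak, while that at Fpr2 gained NCoR from 23.9 and 13.0 to 161 and 156 (3.10, edgeR adjusted p = 9.96e-05). Macrophage lineage genes had 16 sites at 7 of 16 genes and a median ratio of 2.44, with p65 called higher at 14 of 14 (3.60), p300 at 11 of 15 (1.93) and NCoR and HDAC3 at 12 of 15 each (1.80 and 1.84). Near Maf, a lineage transcription factor, a site 309 kb from the TSS held 153 and 139 tags per 10 M of PU.1 with Veh and 324 and 365 with KLA. Sites near Mitf (39.8 and 46.7 with Veh, 216 and 219 with KLA) and Itgax, the integrin CD11c (39.3 and 27.4 with Veh, 205 and 215 with KLA), started lower.

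At the sites of lipid and LXR target genes, Fosl2 was called higher at 0 of 5 sites (median 1.49), while p65 was at 6 of 6 (2.80), p300 at 7 of 7 (2.62), NCoR at 6 of 7 (2.13) and HDAC3 at 6 of 6 (1.73). Near Ch25h, the cholesterol 25-hydroxylase, PU.1 was 45.0 and 38.6 tags per 10 M with Veh and 103 and 96.2 with KLA, and NCoR 39.4 and 57.7 with Veh and 239.8 and 212 with KLA (2.21, edgeR adjusted p = 0.000142). Near Scd1, the stearoyl-CoA desaturase, PU.1 was 26.4 and 27.4 with Veh and 94.2 and 98.1 with KLA, and at Cd36, a scavenger receptor, 37.8 and 39.2 with Veh and 86.4 and 91.1 with KLA. NCoR at Cd36 was 16.7 and 8.24 with Veh and 37.3 and 24.2 with KLA and did not pass the test (1.29, edgeR adjusted p = 0.0664). Micro-RNA hosts had 6 sites at 3 of 7 genes with a median ratio of 4.80, and p65, p300, NCoR and HDAC3 were called higher at 6 of 6 each (4.44, 3.03, 3.12 and 3.23). The site near Mir155hg, host of the inflammatory miR-155, held 8.27 and 13.7 tags per 10 M of PU.1 with Veh and 181 and 166 with KLA, and NCoR went from 0 and 0 to 100.4 and 94.8. Near Mir21a, PU.1 was 17.1 and 25.5 with Veh and 106 and 109 with KLA, with p65 at 35.9 and 44.7 with Veh and 486 and 508 with KLA (3.62, edgeR adjusted p = 8.49e-07). Near Mir222, PU.1 was 24.8 and 28.6 with Veh and 64.8 and 66.3 with KLA.

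H3K27ac was counted only over regions of open chromatin. The WT and NKO table merged regions open in any of 4 conditions. There 395 of the 1865 sites and 9940 of the 38365 other distal peaks lay within 500 bp of a region centre. Of the 395 sites, 300 had enough tags to be tested. Of the 395, 323 (81.8%) were near a region found open in WT with KLA only, against 29.8% of the other distal peaks near a region and 15.1% of the lowered ones. Over all 24867 regions the share was 28.7%. Most regions near the sites were thus listed through KLA, unlike most of the regions they are set beside. The counts called in this table were not split by listing, so its part in them was not tested.

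In WT cells H3K27ac was called higher with KLA at 116 of 300 sites and lower at 0, beside 6.49% of all 18504 regions called higher and 3.72% called lower. The median level over all 395 sites was 5.04 and 5.09 tags per 10 M with Veh and 12.6 and 13.1 with KLA, and the median log2 fold change 1.27, against 0.13 over all regions and 0.01 near the other distal peaks. The count was 75 without WT Veh replicate 2. In NKO cells it was called higher at 67 sites and lower at 4, beside 2.75% of all regions called higher and 7.96% called lower, with median levels of 7.37 and 6.96 with Veh and 10.6 and 13 with KLA. The median log2 fold change in NKO was 0.83 at the sites and -0.20 over all regions. The lowest p-value in WT fell near Ehd1, an endocytic recycling protein, at 5.04 and 2.55 with Veh and 133 and 185 with KLA (log2 fold change 5.40, edgeR adjusted p = 4.79e-17), and in NKO the same region stood at 2.95 and 3.48 with Veh and 96.1 and 144 with KLA (5.17). The region called lower in NKO with the lowest p-value was near Tln1, at 135 and 143 with Veh and 64.2 and 67.4 with KLA (-1.08).

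The genotypes were compared directly as well. With KLA, H3K27ac was called lower in NKO than in WT at 1 site and higher at 0, beside 0.389% of all regions called lower and 0.4% called higher, with a median log2 difference of -0.18 at the sites and -0.04 over all regions. The site was near Drc7, at 76.7 and 90.3 tags per 10 M in WT and 34.5 and 47.9 in NKO (-1.03, edgeR adjusted p = 0.0494), and it was not called without NKO KLA replicate 1 or without WT KLA replicate 1. The KLA response, tested as the interaction of genotype and treatment, was called smaller in NKO at 2 sites and larger at 0, beside 0.67% and 0.027% of all regions. Its median log2 difference was -0.45 at the sites and -0.34 over all regions, and with TMM 0 sites were called and the median was -0.11. The 2 calls were lost without NKO KLA replicate 1, NKO Veh replicate 1, WT KLA replicate 2 or either WT Veh library, stood at 1 without NKO KLA replicate 2, and rose to 8 without NKO Veh replicate 2 and to 5 without WT KLA replicate 1. These comparisons share the WT and NKO KLA libraries.

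The RGFP966 and Pgc1b tables cover only regions listed as open in WT with Veh, a list that differs from that of the WT and NKO table: 205 (11.0%) of the KLA-raised sites had such a region, against 37.0% of the other distal peaks. With DMSO, H3K27ac was called higher with KLA at 143 of 201 sites and lower at 0, beside 6.73% of all 25045 regions called higher and 28.1% called lower. The median level was 23.3 and 25.3 tags per 10 M with Veh and 102 and 85.8 with KLA, while near the other distal peaks it was 69.8 and 66.3 with Veh and 40.8 and 34.5 with KLA. On the log2 scale the median change was 1.72 at the sites, -0.42 over all regions, -0.75 near the other distal peaks and -1.68 near the lowered ones. The lowest p-value fell near 4933432I03Rik, at 4.15 and 10.5 with Veh and 374 and 304 with KLA (5.53). Near Mx1, the region went from 34.1 and 30.5 to 295 and 265 (3.11, SE 0.25, edgeR adjusted p = 3.09e-33), and near Sod2 from 35.7 and 22.7 to 555 and 466 (4.12, SE 0.25, edgeR adjusted p = 1.44e-57). In Pgc1b flox cells without Cre, other libraries, 121 of 195 sites were called higher and 2 lower, beside 5.22% of all 25197 regions called higher and 25.6% called lower. There the median level went from 28.6 and 26.3 to 80.8 and 86.8 tags per 10 M with a median log2 fold change of 1.38. Of the 143 sites called higher with DMSO, 114 of the 141 tested in Pgc1b flox cells were called higher as well.

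**Figure D5:**
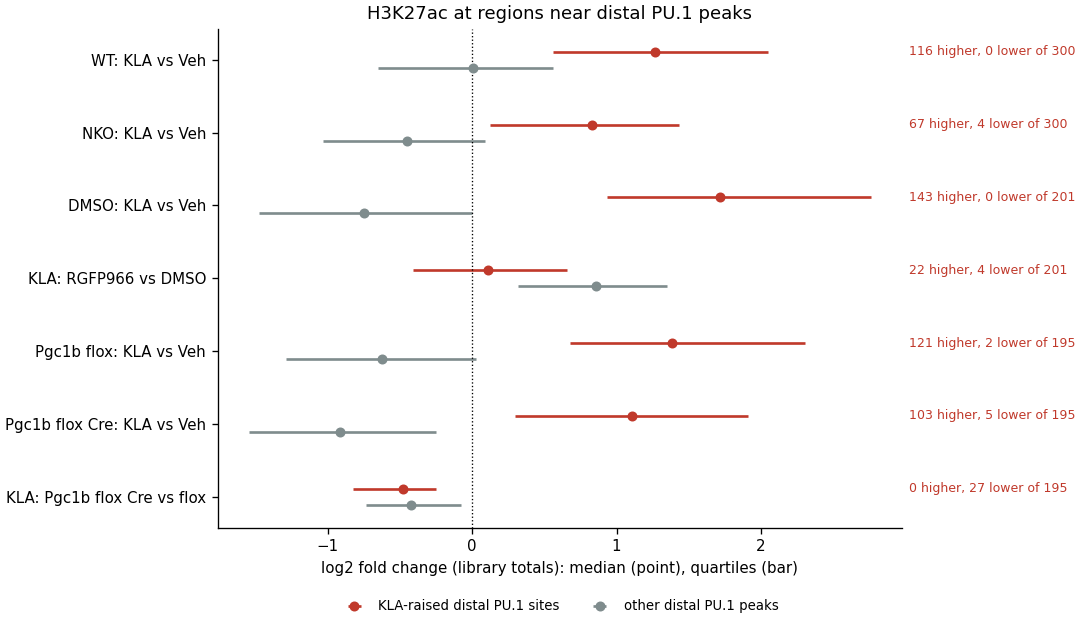
Median log2 fold change of H3K27ac (points, with bars over the quartiles of sites) in 7 comparisons, for regions near the KLA-raised distal PU.1 sites and near the other distal PU.1 peaks. KLA against Veh gives medians above 0 at the KLA-raised sites in each of the 5 groups of cells, from 0.83 (NKO) to 1.72 (DMSO), while RGFP966 against DMSO gives 0.11 at the KLA-raised sites and 0.85 near the other distal peaks.

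With RGFP966 and KLA, H3K27ac at the KLA-raised sites differed less from DMSO and KLA than it did near the other distal peaks, by the medians given here. The median level at the sites was 124 and 107 tags per 10 M with RGFP966 and KLA, against 102 and 85.8 with DMSO and KLA, and near the other distal peaks 86.9 and 74.5 against 40.8 and 34.5. H3K27ac was called higher with RGFP966 at 22 of 201 sites and lower at 4, beside 26.9% of all regions called higher and 9.53% called lower. The split depends on scaling: by TMM 7 sites were called higher and 23 lower. The median log2 difference was 0.11 at the sites (-0.24 by TMM), 0.39 over all regions and 0.85 near the other distal peaks. These values share the DMSO and KLA libraries with the comparison above. Sites chosen on other libraries, the 121 called higher with KLA in Pgc1b flox cells, had a median of -0.19, with 74 (61.2%) below 0, 8 called higher and 4 called lower. Of the 116 sites called higher in WT cells, 36 were tested, with a median of -0.46, 29 below 0, 0 called higher and 1 called lower. Near Sod2, H3K27ac was 217 and 171 with RGFP966 and KLA (-1.39, SE 0.20, edgeR adjusted p = 6.37e-11), near Maf 84.3 and 66.4 (-0.79, edgeR adjusted p = 0.00166, under the fold limit) beside 140.5 and 120.3 with DMSO and KLA, and near Mx1 286 and 218 (-0.15, edgeR adjusted p = 0.507). In the other direction, the lowest p-value fell near Dusp22, at 24 and 24.4 with DMSO and KLA and 122 and 102 with RGFP966 and KLA (2.21, edgeR adjusted p = 9.89e-14). Near Nfkb1 it was 40.8 and 29.4 against 80.3 and 63.7 (1.02, edgeR adjusted p = 0.000578).

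H3K27ac was also higher with KLA at many of the sites in cells that lack Pgc1b. In Pgc1b flox Cre cells H3K27ac was called higher with KLA at 103 of 195 sites and lower at 5, beside 4.18% of all regions called higher and 32.5% called lower, with median levels of 23.1 and 22.6 with Veh and 55.6 and 56.0 with KLA. In log2 units the median change was 1.11 at the sites and -0.62 over all regions. With KLA, Cre cells were called lower than flox cells at 27 sites and higher at 0, beside 6.81% and 0.702% of all regions, and by TMM lower at 5 and higher at 2. The median log2 difference was -0.48 at the sites and -0.38 over all regions, and -0.09 at the sites by TMM. Among the 141 tested sites chosen on the DMSO libraries, 22 were called lower, 128 (90.8%) had a value below 0 and the median was -0.51. The KLA response, tested as an interaction, was called smaller in Cre cells at 12 sites and larger at 2, beside 4.6% and 0.77% of all regions, with a median log2 difference of -0.39 at the sites and -0.18 over all regions. By TMM it was called smaller at 5 and larger at 2.

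Single sites in the Pgc1b cells went both ways. Near Maf, H3K27ac with KLA was 129 and 105 tags per 10 M in flox cells and 46.2 and 56.0 in Cre cells (log2 difference -1.19, edgeR adjusted p = 1.67e-06). Near Lrp1, a receptor of the LDL family, it was 268 and 335 in flox and 129 and 105 in Cre cells with KLA (-1.37, edgeR adjusted p = 8.06e-31). The region near Lrp1 was also called lower with KLA within Cre cells, at 321 and 311 with Veh (-1.44), whereas PU.1 at this site was 8.27 and 13.7 with Veh and 84.4 and 80.3 with KLA in wild-type cells. Near Aoah, an enzyme that inactivates lipopolysaccharide, flox cells had 40.4 and 27 with Veh and 466 and 499 with KLA (3.81, edgeR adjusted p = 5.92e-128), the lowest p-value among the sites. Near Gclc, the catalytic subunit of glutathione synthesis, flox cells had 136 and 172 with Veh and 56.3 and 63.9 with KLA (-1.35). In Cre cells the lowest p-value for a gain fell on a region near 4930529L06Rik, at 22.4 and 28.5 with Veh and 267 and 255 with KLA (3.36). Near Sod2, flox cells went from 15.2 and 26.3 to 355 and 302 and Cre cells from 13.7 and 23.9 to 213 and 218, and the interaction did not pass the test (-0.49, edgeR adjusted p = 0.316).

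ERK inhibition was measured for 2 factors. PGC1β with KLA and ERKi was called lower than with KLA and DMSO at 5 of 1458 sites and higher at 0, beside 0.178% and 0.108% of all peaks, and by TMM lower at 3 and higher at 1. The median level was 56.3 and 54.3 tags per 10 M with ERKi and 73.0 and 67.0 with DMSO, and the median log2 difference -0.33 at the sites and -0.20 over all peaks. The 5 calls were lost without DMSO KLA replicate 1 or either ERKi library and 1 remained without DMSO KLA replicate 2. The lowest p-value fell near A930007I19Rik, at 309.9 and 199.5 with DMSO and 57.9 and 62.1 with ERKi (-2.08, edgeR adjusted p = 0.0118). At the Tnfaip3 site PGC1β was 341.5 and 317 with DMSO and 153 and 144 with ERKi, which did not pass the test (-1.15, edgeR adjusted p = 0.063).

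NCoR with ERKi was lower over much of the table, the sites included. The median level at the sites was 20.3 and 22.4 tags per 10 M with Veh, 92.3 and 91.3 with KLA and 33.0 and 31.9 with KLA and ERKi. NCoR was called lower with ERKi at 1257 of 1723 sites and higher at 0, beside 48.6% and 0.634% of all 57573 peaks, with a median log2 difference of -1.45 at the sites and -1.20 over all peaks. By TMM 124 sites were called lower and 16 higher, and the median was -0.28. The table's headers carry another date for the ERKi libraries than for those without ERKi, so that the inhibitor and what that date marks cannot be told apart, and the count was 736 without NCoR KLA replicate 1 and 771 without NCoR KLA replicate 2. The lowest p-value fell near Lilra6, at 322 and 287 with KLA and 39.7 and 27.6 with ERKi (-3.17, edgeR adjusted p = 2.60e-05). Near Cp it was 305 and 249 with KLA and 106 and 82.7 with ERKi (-1.55, edgeR adjusted p = 0.000231). Near Ccl5 it was 108.5 and 83.7 with KLA and 72.7 and 71.5 with ERKi and did not pass the test (-0.41, edgeR adjusted p = 0.252).

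In bone marrow cells on the way to osteoclasts, which received no KLA, a smaller share of the sites than of the other distal peaks had a peak. A p300 peak of day 0 or day 4 lay near 312 of the 1865 sites and near 10399 of the 38365 other distal peaks. Of the 312 sites, 224 were called higher at day 4 and 1 lower, beside 62.2% and 0.248% of all 20143 peaks. The median level was 8.79 and 6.39 tags per 10 M at day 0 and 40.1 and 39.7 at day 4, beside 14.1 and 12.8 at day 0 and 43.0 and 43.1 at day 4 at the other distal peaks, and the median log2 fold change was 2.12 at the sites and 1.84 over all peaks. By TMM 35 were called higher and 4 lower. The count was 72 without day 4 replicate 1 and 66 without day 4 replicate 2. The site with the lowest p-value, near Rreb1, held 2.64 and 0 at day 0 and 180 and 195 at day 4, and the site near Neat1 held 81.8 and 59.6 at day 0 and 32.3 and 38.6 at day 4 (-1.02, edgeR adjusted p = 0.0433). An ERK1 peak lay near 259 sites and near 10079 of the other distal peaks. ERK1 was called higher at 7 of 259 sites and lower at 0, beside 2.33% and 0.0267% of all 14957 peaks, with median levels of 15.5 and 15.8 at day 0 and 35.8 and 25.1 at day 4. This count was 13 and 20 without day 0 replicate 1 and 2, and 0 without either day 4 library or by TMM. The lowest p-value fell near Cenpx, at 0 and 0 at day 0 and 31.1 and 15.5 at day 4.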

How the data were processed

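The files were tables of raw tag counts per peak or region, deposited by the authors for 70 ChIP-seq libraries. Per the study's methods and processing notes, the authors aligned reads to mm10 with Bowtie2, called peaks with HOMER, kept reproducible peaks merged over treatments, and counted at most 3 tags per position without normalization. The regions for H3K27ac came from chromatin accessibility data. For this text edgeR 4.0.16 in R 4.3.3 was run on these counts (F-test of the quasi-likelihood model, Benjamini-Hochberg adjustment), with the totals in the file headers as library sizes, after a filter of at least 4 tags (factors) or 16 tags (H3K27ac) in 1 library. A call needed an adjusted p under 0.05 and a change of more than 2-fold. Each fit held all groups of its table, from 2 to 4 groups with 2 libraries each. The groups compared were then contrasted within that fit. Factor peaks and H3K27ac regions were matched to a PU.1 site by centres within 500 bp.

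The sites and gene lists were chosen with earlier results of these data known. Named sites were, for each listed gene, the site with the most PU.1 with KLA, of which the 3 highest per list are described, the 6 sites of highest ratio and the 6 of highest KLA mean, the lowest p-value in each direction of each comparison, and the 2 sites nearest each threshold. Alternatives were TMM, DESeq2 1.42.0, other filters, a replicate block, other distances and other PU.1 rules. One alternative, peaks called with Veh, was chosen after seeing the data. Tests were tried on simulated data first. The 30 input samples were not analysed here.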

Additional observations from a re-analysis of the deposited data

Results flagged for a closer look

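Each result here was picked out because the interaction term, which tests whether the H3K27ac response to KLA differs between 2 genotypes, passed the threshold at a region near a KLA-raised site. Between NKO and WT, the response was called smaller at 2 of 300 sites, a share near the 0.67% of all regions. The lower p-value belonged to a region 56.8 kb upstream of Edn1, with a log2 difference in response of -4.185 (edgeR adjusted p = 0.015). The WT libraries held 0 and 1.53 tags per 10 M before and 30.8 and 43.4 after stimulation. Those of NKO held 9.59 and 5.22 before and 15.4 and 17.4 after it. The WT libraries with Veh held 3 tags or fewer in all, so the size of this difference depends on very few reads. By TMM 0 sites were called for this interaction.

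Between Pgc1b flox Cre and Pgc1b flox cells, the response was called larger at 2 and smaller at 12 of 195 sites, beside 0.77% and 4.6% of all regions. The region near Gcm1 had the lowest p-value among those called larger, with a log2 difference of 1.802 (edgeR adjusted p = 0.00192). It stood at 24.7 and 38.1 tags per 10 M in flox cells with Veh, 17.8 and 29.8 in flox cells with KLA, 15 and 14.6 in Cre cells with Veh and 33.2 and 45.6 in Cre cells with KLA. The region near Lrp1 had the lowest p-value among those called smaller, with a log2 difference of -1.168 (edgeR adjusted p = 4.46e-13). It stood at 376 and 352 in flox cells with Veh, 268 and 335 in flox cells with KLA, 321 and 311 in Cre cells with Veh and 129 and 105 in Cre cells with KLA. By TMM 5 regions were called smaller and 2 larger.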

How the results depend on the processing

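Of 373 other settings of the 23 counts reported, 255 stayed within 1.5 times the reported count and 118 did not. The 325 named values followed under other settings had all been called, so they could lose a call but not gain one. Named values that were not called were not followed. Of 3587 alternative fits of these 325 values, 3289 kept their direction and stayed past the threshold. Another 298 kept their direction and were no longer past it, and 0 changed direction. Fits without the fold minimum could not lose a call. The cause was not tested except where fewer sites or peaks were counted.

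By TMM the number called was 0 for NKO against WT, 0 for the NKO interaction, 7 for Pgc1b Cre against flox, 7 for its interaction, 140 for NCoR with ERKi, 39 for p300 at day 4 and 0 for ERK1 at day 4. DESeq2 size factors gave 0, 0, 7, 7, 139, 43 and 0, and the DESeq2 Wald test 0, 0, 4, 5, 163, 17 and 0, with 19 for PGC1β with ERKi. Without a filter on low counts NKO against WT gave 4 and its interaction 6, and with filterByExpr the former gave 0. Without a fold minimum NKO against WT gave 3, RGFP966 against DMSO 97, Pgc1b Cre against flox 92 and its interaction 31. With centres within 100 bp, H3K27ac was called at 71 sites in WT, 43 in NKO, 0 for NKO against WT, 1 for its interaction and 9 for the Pgc1b interaction.

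With a PU.1 ratio of 3 or more there were 856 sites, and fewer were counted: p65 826, p300 815, NCoR 769, HDAC3 783, PGC1β 590 (DMSO pair 626, ERKi 3), ERK1 413, H3K27ac 71 in WT, 44 in NKO, 0 between them and 1 for their interaction, 37 with DMSO, 6 for RGFP966, 33 in flox, 28 in Cre, 4 between them and 3 for their interaction, 608 for NCoR with ERKi, 88 for p300 and 3 for ERK1 at day 4. With PU.1 scaled by TMM there were 3628 sites, with p65 called at 3128, p300 at 2671, HDAC3 at 2310, PGC1β at 1793 (DMSO pair 1797, ERKi 12), and H3K27ac at 182 in WT, 3 for NKO against WT, 6 for its interaction, 306 with DMSO, 103 for RGFP966, 247 in flox, 188 in Cre, 64 between them and 39 for their interaction, 2279 for NCoR with ERKi, 533 for p300 and 16 for ERK1 at day 4. Where every KLA library had to be at least 2 times every Veh library, NKO against WT gave 0 and RGFP966 17. At factor peaks called with Veh, a setting chosen after seeing the data, 261 sites were called for p65, 220 for Fosl2, 637 for p300, 399 for NCoR, 268 for HDAC3, 195 for PGC1β, 40 for ERK1 and 174 for the DMSO pair of PGC1β.

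The replicate numbers were not taken as pairs: deviations from the group means correlated by -0.0266 to 0.0878 over 30 pairs of groups. Such correlations cannot show whether samples shared an animal or a preparation. With a replicate block, Fosl2 gave 269, NKO against WT 0 and PGC1β with ERKi 3, and the other counts stayed within 1.5 times.

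Leaving out 1 library at a time gave 1522 to 1714 for p65, 0 to 1259 for Fosl2, 1518 to 1591 for p300, 960 to 1484 for NCoR, 697 to 1555 for HDAC3, 823 to 1189 for PGC1β, 268 to 666 for ERK1, 766 to 989 for the DMSO pair of PGC1β, 0 to 1 for PGC1β with ERKi, 736 to 1161 for NCoR with ERKi, 66 to 263 for p300 and 0 to 20 for ERK1 at day 4. For H3K27ac it gave 75 to 107 in WT, 46 to 55 in NKO, 0 to 1 for NKO against WT, 0 to 8 for its interaction, 135 to 152 with DMSO, 19 to 34 for RGFP966, 117 to 119 in flox, 94 to 100 in Cre, 21 to 30 between them and 11 to 17 for their interaction. A fit that left a group with 1 library took its spread from the other group or groups in the fit. In the WT and NKO H3K27ac libraries, of 13.6 to 19.6 M tags with 5.55 to 7.18% of them in regions, the median site held 5.04 to 13.1 tags per 10 M.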
